A study of Mus musculus with 16 samples.

Results

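Gene expression in BACHD hearts was compared with that in WT hearts at 3 mo of age, on 4 arrays of each genotype out of the 16 arrays of the series, with 1 array taken as 1 mouse, so that the p-values measure the spread between these hearts. The BACHD mice carried a bacterial artificial chromosome (BAC) with human mutant huntingtin in full length, on the C57BL6/J background, so the mouse gene was present beside it, and the WT mice were their littermates. The other 8 arrays held BACHD and WT hearts at 15 mo and entered the comparison through the shared estimate of the spread and through the test of whether the genotype difference changed with age. The labels give heart as the tissue and name the ages only as young and old; that the RNA came from ventricles of mice aged 3 and 15 mo is stated in the methods. All 8 young arrays were taken by their labels, and every one of the 25697 probes was compared. The comparison asked which transcripts already differed between the genotypes early in the disease, and the detection p-value of each probe separated transcripts that the array measured from probes at background.

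Huntington's disease follows from an expanded CAG repeat in the huntingtin gene, which is expressed in the heart as well as in the brain. The adult ventricle draws most of its energy from the oxidation of fatty acids in mitochondria, answers strain by secreting natriuretic peptides, and clears damaged protein through chaperones, the proteasome and the lysosome. The lysosome is also where Rag GTPases hold the growth kinase complex mTORC1 when amino acids are plentiful.

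The tissue was checked against markers of the ventricle. Myl2, the ventricular myosin light chain, lay at 15.26 to 15.29 on the normalized log2 scale in BACHD hearts and at 15.22 to 15.29 in WT hearts, and Irx4, a ventricular transcription factor, was detected on all 8 arrays. Of 7 atrial markers, 2 were detected, Nppa and the atrial light chain Myl4, on all 8 arrays, with a mean level of 10.43 to 10.80 in BACHD hearts and 9.97 to 10.73 in WT hearts, while Sln, Myl7 and Bmp10 were detected on none. The Htt probe was detected on 3 of the 8 arrays and averaged 5.74 in BACHD hearts and 5.63 in WT hearts (log2 difference 0.11, exact permutation p = 0.429). Whether the probe reads the human transgene was not tested, so it does not check the genotype. An array detected 9809 to 10230 probes in BACHD hearts and 9780 to 10755 in WT hearts, and the correlation over all probes was 0.984 to 0.994 among the 28 pairs of young arrays. Single arrays stood apart within their groups. The mean of the 7 detected members of a list of 9 liver transcripts was 7.14, 8.16, 10.64 and 8.24 on BACHD arrays 1 to 4, against 11.09, 8.19, 5.53 and 9.91 on WT arrays 1 to 4. It was thus high on 1 BACHD array and 2 WT arrays, low on another WT array, and overlapped between the genotypes. The neutrophil list was at 8.78 on WT array 2 and at 5.88 to 7.01 on the other 7 arrays.

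Of the 10205 probes detected on at least 4 of the 8 arrays at a detection p-value below 0.01, 54 were called at P below 0.005 without adjustment, 30 higher and 24 lower in BACHD hearts. This is 0.529% of the detected probes, and over all probes 124 of 25697 were called (65 higher and 59 lower), or 0.483%, both close to the share that the threshold itself allows. By limma with Benjamini-Hochberg adjustment 0 probes passed 0.05, with 602 detected probes and 1253 probes in all at P below 0.05, and the smallest adjusted p was 0.507 among detected probes. Over all probes it was 0.0789, for Mpv17l, whose probe was detected on 2 of the 8 arrays. The differences were small. Of the detected probes, 82.4% differed by less than 0.2 on the log2 scale, and the 54 called ones differed by 0.23 to 0.86, with a median of 0.40. The 4 BACHD arrays and the 4 WT arrays did not overlap for 332 detected probes (213 higher and 119 lower in BACHD), or 3.25%, among them 42 of the 54 called. Where the groups did not overlap, the exact permutation p was 0.0286, the smallest that 4 arrays against 4 can give. The share of 3.25% is close to the share that such a p allows, so a lack of overlap does not by itself set a gene apart. Scaled to the median instead of by quantiles, the detected calls numbered 34 (13 higher and 21 lower), so the balance of directions turned with the scaling. Without BACHD array 3 and WT arrays 1 and 4, the arrays high in liver transcripts, 93 detected probes were called (41 higher and 52 lower), 19 of the 54 among them, and without WT arrays 1 and 2, high in the clock gene Dbp, 57 were called, 18 of the 54 among them; both settings were chosen after seeing the data. The calls lost without the 3 arrays high in liver transcripts included those of Manba, Snf8, P4ha1, Adam9, Hadh, Acadl, Abcd3, Nppb, Fgf13, Ss18, Eif1a, Zfp638, Zfp933 and Irf5, and these calls except Manba, P4ha1 and Zfp638 were also lost without the 2 arrays high in Dbp, as was that of Slc17a5. Without BACHD array 3 alone 91 were called. Leaving out each array in turn left 24 to 37 of the 54 called, the fewest without BACHD array 1 or BACHD array 2. All 54 kept their direction under every one of the 19 other settings tried. These settings refit the arrays that chose the 54, so the kept direction is only a description. Among the settings, the fit without background correction and that on the authors' processed values read the same values. The 12 genes called without each array in turn were Tpd52l2, Ccn5, P4ha1, Ss18, Dpp7, Irgq, Zfp638 and Gatb, all higher, and Rragd, Manba, Zfp933 and Eif1a, all lower. Because the samples are whole ventricle, fewer cells of a type and less RNA per cell cannot be told apart for any gene described here.

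**Figure D1:**
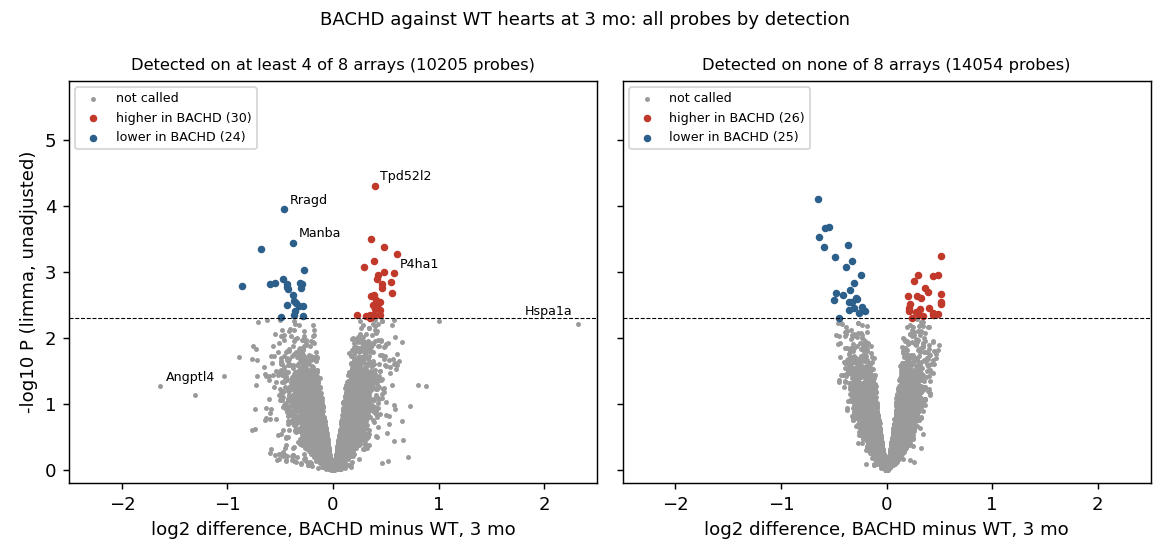
The log2 difference of each probe (BACHD minus WT, horizontal axis) against -log10 of its unadjusted limma P (vertical axis), for 10205 detected probes on the left and 14054 probes that no young array detected on the right, with the dashed line at P of 0.005. Red points are called higher in BACHD (30 and 26) and blue points lower (24 and 25). Nearly as many calls lie among probes without a detected signal as among detected ones, though the former are more numerous.

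The detected calls included 4 genes of the lysosome, 3 lower and 1 higher in BACHD hearts. Rragd, which encodes a Rag GTPase of the mTORC1 pathway, was at 8.10, 8.24, 8.39 and 8.14 in BACHD hearts, against 8.87, 8.70, 8.58 and 8.59 in WT hearts. Every BACHD heart lay below every WT heart, and the gene fell by 0.46 on the log2 scale (SE 0.09, adjusted p = 0.564 by limma). Manba, the lysosomal beta-mannosidase, was at 9.37, 9.27, 9.19 and 9.16 in BACHD hearts, against 9.72, 9.54, 9.68 and 9.57 in WT hearts. The groups again did not overlap, with a difference of -0.38 (SE 0.08), and its second detected probe differed by -0.27, short of the threshold. Slc17a5, the exporter of sialic acid from lysosomes, averaged 5.82 ± 0.17 in BACHD hearts and 6.18 ± 0.08 in WT hearts (SD, n = 4 each), lower by limma with a difference of -0.36, although BACHD array 3 (6.07) lay just above WT array 4 (6.06). The Slc17a5 probe was detected on 6 of the 8 arrays. Its call was lost without any one of BACHD arrays 1, 2 and 4 and WT arrays 1, 2 and 3. The Manba call was lost with median scaling and without the 3 arrays high in liver transcripts.

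Dpp7, a dipeptidyl peptidase of lysosomes, went the other way. It was at 7.57, 7.54, 7.30 and 7.37 in BACHD hearts, against 7.15, 6.94, 7.09 and 7.15 in WT hearts. All BACHD values were above all WT values, with a log2 difference of 0.36 (SE 0.08), a call lost only with median scaling among the settings tried. Many lysosomal genes carry the E-box CACGTG, read by the TFEB family of transcription factors, in their promoters, so the 300 bases from 250 before to 50 after the annotated start of the 4 called lysosomal genes were searched on both strands. The Dpp7 promoter held 1 match, at -73 to -68 relative to the start, inside the longer form TCACGTGA, and those of Rragd, Manba and Slc17a5 held none. CACGTG occurred in 7.15% and TCACGTGA in 0.974% of the 32851 promoters of the RefSeq table (GRCm38.p6). The Dpp7 promoter (chr2:25356283-25356582, minus strand) is shown with the match in capitals, as the one member of the group that holds it.
Dpp7: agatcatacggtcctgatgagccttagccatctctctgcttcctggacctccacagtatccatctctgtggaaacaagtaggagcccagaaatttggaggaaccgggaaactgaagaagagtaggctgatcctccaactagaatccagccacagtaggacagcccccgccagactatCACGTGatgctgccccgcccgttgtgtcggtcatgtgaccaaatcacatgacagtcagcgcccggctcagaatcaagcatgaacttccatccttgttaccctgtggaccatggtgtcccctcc

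Across the list of lysosomal and Rag pathway genes, 50 had a probe and 42 of these were detected. Of these, 1 was called higher (Dpp7) and 2 lower (Manba and Rragd), and the detected members had a median log2 difference of 0.02, beside 0.01 over all detected genes; Slc17a5 was not on the list. Over all genes, represented by 1 probe each, 0.265% were called higher and 0.217% lower. Genes of membrane traffic were also among the calls. Tpd52l2, a D52 family protein of vesicle traffic, had the smallest P of all detected probes: 7.94, 7.87, 7.85 and 7.86 in BACHD hearts, against 7.53, 7.39, 7.60 and 7.40 in WT hearts. The 4 BACHD values were nearly equal and lay clear of the WT values (log2 difference 0.40, SE 0.07, adjusted p = 0.507 by limma). Snf8, a subunit of the ESCRT complex that sorts cargo to the lysosome, was higher by 0.43 without overlap (lost without WT array 1) and was the 1 call among 28 detected autophagy genes. Gosr1, a Golgi SNARE, was higher by 0.31, with overlapping groups, and was called in 2 of the 8 fits that leave out an array.

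Genes of the extracellular matrix held 3 of the higher calls and no lower one, out of 43 detected and 55 measured members, beside 24 higher and 15 lower calls over all 7291 detected genes. Ccn5, which is secreted into the matrix and belongs to the CCN proteins, was at 7.59, 7.66, 7.50 and 7.73 in BACHD hearts, against 7.27, 7.27, 6.61 and 6.90 in WT hearts. The BACHD hearts clustered tightly above a wider WT group, and the gene rose by 0.60 (SE 0.14), a fold of 1.52, and stayed called under every setting tried. P4ha1, a catalytic subunit of collagen prolyl 4-hydroxylase, was at 8.09, 8.66, 8.37 and 8.49 in BACHD hearts, against 7.82, 8.04, 7.63 and 7.81 in WT hearts. It was higher by 0.58 (SE 0.14) without overlap. Adam9, a membrane metalloprotease, was at 7.34, 7.32, 7.08 and 7.39 in BACHD hearts, against 6.62, 6.92, 6.74 and 6.63 in WT hearts. No value was shared between the groups, and the difference was 0.55 (SE 0.14). It missed the threshold without BACHD array 4, WT array 1 or WT array 4, and the calls of P4ha1 and Adam9 were lost without the 3 arrays high in liver transcripts.

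The collagens themselves did not pass the test. Col1a1 differed by 0.02 and Col3a1 by -0.03, and the whole list had a median of 0.02 over its detected members, with 22 of 43 above 0. P4ha2, another such subunit, differed by 0.35 and Tgfb3 by 0.31, both short of the threshold. Pofut2, which adds fucose to thrombospondin repeats of secreted proteins and is not on the list, was higher by 0.42 (lost without WT array 1), and Vegfd, a lymphatic growth factor, by 0.40 with overlapping groups. The Vegfd call was kept in 1 of the 8 fits that leave out an array. Of 12 markers of fibroblasts, the cells that make most of the matrix, 0 were called by limma (0 at P below 0.05). Their detected members had a median of -0.11, 9 of 10 below 0, and their mean level was 9.31 to 9.52 in BACHD hearts and 9.36 to 9.61 in WT hearts. The study names several of the genes described here, P4ha1, Adam9, Manba, Rragd and Nppb among them, from these same arrays, so their calls are not independent evidence. It also measured Hspa1a, Nppb, Kcnip2 and Acot1 by quantitative PCR in young ventricles. By PCR it reports Hspa1a and Nppb as increased and Kcnip2 and Acot1 as decreased in BACHD mice. Its methods give the same RNA extraction for arrays and PCR, and the PCR values were not analysed here.

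Fatty acid oxidation gave 2 lower calls and no higher one among 35 detected members, beside the 15 lower and 24 higher calls over the 7291 detected genes. Hadh, the mitochondrial short-chain 3-hydroxyacyl-CoA dehydrogenase, was at 5.62, 5.97, 6.40 and 6.56 in BACHD hearts, against 6.94, 6.89, 6.87 and 7.27 in WT hearts. The WT values lay close together and the BACHD values below them were spread over about 1 unit. The difference was -0.86 (SE 0.22), the largest of the 54 called, on a probe detected on 7 of the 8 arrays. Acadl, the long-chain acyl-CoA dehydrogenase, was at 10.58, 10.80, 11.00 and 11.09 in BACHD hearts, against 11.25, 11.44, 11.08 and 11.19 in WT hearts. BACHD array 4 lay above WT array 3, so the groups touched, and the difference was -0.37 (SE 0.11). A second Acadl probe detected on all 8 arrays differed by 0.06, so the call holds for 1 of its probes. The list as a whole had a median of -0.02, with 21 of 35 detected members below 0. The Hadh call was lost without BACHD array 1, BACHD array 2 or WT array 4, and the Acadl call without any one of BACHD arrays 1 and 2 and WT arrays 1, 2 and 4, and also with median scaling or with only the young arrays.

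None of the further members of the list named next was called. Angptl4, a target of the fatty acid receptors known as PPARs and a secreted inhibitor of lipoprotein lipase, was at 7.65, 7.42, 8.69 and 9.50 in BACHD hearts, against 8.50, 10.62, 11.31 and 9.37 in WT hearts. BACHD arrays 3 and 4 lay within the WT range, and the difference of -1.63, the most negative of all detected probes, had an exact permutation p of 0.143. Ucp3, a mitochondrial uncoupling protein, was at 5.69, 6.05, 7.08 and 7.90 in BACHD hearts, against 6.81, 8.50, 7.97 and 7.57 in WT hearts, in much the same pattern over the arrays (-1.03, exact permutation p = 0.171). Pdk4, a kinase that inhibits pyruvate dehydrogenase, differed by -0.60 and the thioesterase Acot1 by -0.42 (exact permutation p = 0.0571 for Acot1). Another Acot1 probe detected on all 8 arrays differed by -0.64, also not called. Bdh1, which oxidises ketone bodies, differed by 0.58 without overlap between the groups, just short of the threshold.

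Single calls fell on a gene for the transport of fatty acids into peroxisomes and on a gene for the making of protein in mitochondria. Abcd3, a transporter of the peroxisomal membrane, was at 11.35, 11.48, 11.24 and 11.26 in BACHD hearts, against 11.70, 11.57, 11.75 and 11.56 in WT hearts. It was lower without overlap (-0.31, SE 0.08; lost without BACHD array 3 or 4 or WT array 1 or 3), as the 1 call among 23 detected peroxisomal genes, whose median was 0.01. Without background correction, on the authors' processed values and with trended and robust variances, 1 peroxisomal gene was also called higher. Gatb, a subunit of the amidotransferase that completes glutaminyl-tRNA in mitochondria, was higher by 0.39, while its 3 other detected probes differed by 0.06, -0.06 and -0.02. Mterf2, of the mitochondrial transcription termination factor family, was higher by 0.45 and was called in 2 of the 8 fits that leave out an array. Among 61 detected genes of the respiratory chain and ATP synthase 0 were called by limma (0 at P below 0.05), with a median of -0.02. H6pd, the glucose 6-phosphate dehydrogenase of the endoplasmic reticulum, fell by 0.28 on the log2 scale, and Abat, the GABA transaminase, was higher by 0.42. Both H6pd and Abat were called in 4 of the 8 fits that leave out an array.

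Of the genes that mark strain on the myocyte, Nppb, which encodes brain natriuretic peptide, was called. It was at 13.81, 13.98, 14.01 and 13.69 in BACHD hearts, against 13.44, 13.18, 13.40 and 13.60 in WT hearts. All BACHD hearts were above all WT hearts, by a mean of 0.47 (SE 0.12), a fold of 1.38. The call was lost without BACHD array 2, BACHD array 3 or WT array 2, and also without the 3 arrays high in liver transcripts or the 2 high in Dbp. Nppa, the atrial peptide, differed by 0.26 and Myh7, the slow myosin, by -0.06, and neither passed the test. Acta1, the skeletal actin of the fetal program, was at 13.02, 13.69, 13.72 and 13.68 in BACHD hearts, against 12.57, 12.94, 12.36 and 13.31 in WT hearts. Only BACHD array 1 fell within the WT range, and the difference of 0.73 had an exact permutation p of 0.0571, against a smallest possible 0.0286. The list of 15 detected fetal and stress genes had 1 call and a median of 0.10, with 11 members above 0.

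Genes of excitation gave few calls. Fgf13, an intracellular member of the fibroblast growth factor family that binds sodium channels, was at 8.01, 7.57, 7.84 and 7.88 in BACHD hearts, against 8.66, 8.15, 8.17 and 8.27 in WT hearts. It was lower without overlap (-0.49), while a second probe detected on all 8 arrays differed by -0.01. The call was kept in 2 of the 8 fits that leave out an array, and was lost with an offset of 50, with median scaling and with only the young arrays. Of 17 detected potassium channel genes, read on 1 probe each, 0 were called by limma, with 4 at P below 0.05. Kcnip2, a subunit of the transient outward current, was at 7.57 to 8.35 in BACHD hearts, against 8.24 to 8.72 in WT hearts. Only BACHD array 3 exceeded any WT value, but the difference of -0.45 had an exact permutation p of 0.114. Further Kcnip2 probes detected on all 8 arrays differed by -0.47 and -0.29, in the same direction and also not called. Kcne1 differed by -0.72 and Kcna5 by 0.65 on the probes used for the list, in opposite directions and not called. The Kcna5 probe was detected on 6 of the 8 arrays. A further Kcne1 probe that no array detected was among the lower calls. Of 26 detected genes of calcium cycling 0 were called by limma, with 3 at P below 0.05, among them Camk2b, a calmodulin kinase, whose groups did not overlap (0.34). Pde8a, a phosphodiesterase that breaks down cAMP, was higher by 0.42, and Yap1, the growth regulator of the Hippo pathway, by 0.39, which was lost without any one of BACHD arrays 1, 2 and 3 and WT arrays 2 and 4. The Pde8a call was kept in 2 of the 8 fits that leave out an array.

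**Figure D2:**
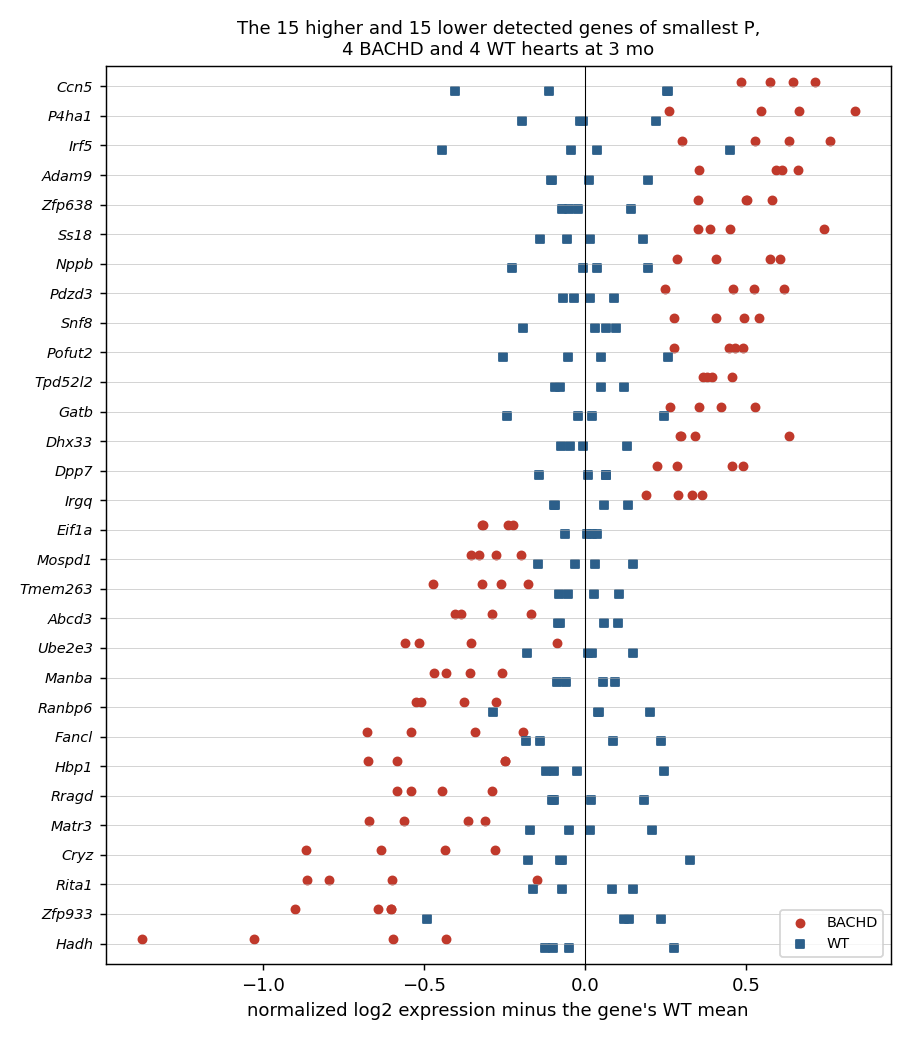
Normalized log2 expression of each array minus the WT mean of the gene (horizontal axis) for the 15 higher and 15 lower detected genes of smallest P (rows), with BACHD hearts as red circles above WT hearts as blue squares. Tpd52l2 and Eif1a show tight groups that stand apart, whereas the BACHD values of Hadh spread from 5.62 to 6.56 and BACHD array 3 of Rita1 lies among the WT values.

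Further calls fell on genes whose proteins handle RNA, chromatin and DNA. Matr3, an RNA-binding protein of the nuclear matrix, was at 7.23, 7.34, 7.54 and 7.59 in BACHD hearts, against 7.73, 7.92, 8.11 and 7.85 in WT hearts. The groups did not overlap (-0.48; lost without BACHD array 1 or WT array 3), yet a second probe differed by -0.08. Zfp638, a nuclear zinc finger protein that binds nucleic acid, was at 7.82, 7.90, 7.82 and 7.67 in BACHD hearts, against 7.46, 7.30, 7.27 and 7.25 in WT hearts, and Ss18, a subunit of the BAF chromatin remodelling complex, was higher by 0.48. For Ss18 the second detected probe differed by 0.00. Eif1a, a translation initiation factor, was at 8.25, 8.33, 8.34 and 8.25 in BACHD hearts, against 8.50, 8.60, 8.58 and 8.59 in WT hearts. Its difference of -0.27 (SE 0.07) was small and its groups were narrow, and it was the 1 call among 29 detected translation factors, of which 1 was also called higher without background correction, with an offset of 50 and on the authors' processed values. Zfp933, a zinc finger gene, was at 5.88, 6.14, 6.18 and 6.18 in BACHD hearts, against 6.92, 7.02, 6.29 and 6.90 in WT hearts. The gap to the BACHD values was narrow only for WT array 3 (-0.69, SE 0.15).

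Fancl, the ubiquitin ligase of the Fanconi anaemia core complex, and Ddb2, which recognises ultraviolet damage, were lower (-0.44 and -0.32), while Top3b, a topoisomerase, and the histone gene H2bc4 were higher (0.35 and 0.23). Fancl was called in 4 of the 8 fits that leave out an array, Ddb2 and H2bc4 in 2 each, and Top3b in 1. The transcriptional repressor Hbp1 was lower on one probe (-0.44) and differed by -0.15 on another. In the ubiquitin and SUMO systems the conjugating enzyme Ube2e3 (-0.38), the deubiquitinase Mindy1 (-0.37) and the ligase Marchf6 (-0.28) were lower, and Skp1 of the SCF ligases (0.36), the deubiquitinase Otub2 (0.38) and Sae1 of the SUMO activating enzyme (0.36) were higher. Marchf6 and Sae1 were called in 0 of the 8 fits that leave out an array, Ube2e3 in 3, and Mindy1, Skp1 and Otub2 in 4 each. Among 33 detected genes of the proteasome and the muscle ubiquitin ligases 0 were called by limma (0 at P below 0.05), and their median was 0.02. The remaining calls were Setd3, which methylates actin, Zc3h3, Lrrc24 and the RNA helicase Dhx33, higher by 0.39 to 0.45, and the quinone reductase Cryz, the glutathione transferase Gstt2, Ranbp6, Pced1a, Tmem263 and Mospd1, with differences of -0.55 to -0.29. These remaining calls were kept in 0 (Setd3) to 6 (Mospd1) of the 8 fits that leave out an array. The Lrrc24 and Cryz probes were each detected on 6 of the 8 arrays. Of all 54 called genes, 18 had at least 1 more detected probe. Of these 22 further probes 0 were called by limma (4 at P below 0.05), 18 differed in the direction of the called probe and 4 in the opposite one. The Rita1 pair was the widest split, with -0.60 on its called probe, detected on 5 of the 8 arrays, and 0.21 on the other.

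The largest difference of any detected probe belonged to Hspa1a, the inducible HSP70 chaperone, and it was not called, although it was called higher without background correction and on the authors' processed values. Its values were 5.92, 9.23, 9.39 and 9.78 in BACHD hearts, against 8.28, 5.30, 5.23 and 6.25 in WT hearts. BACHD array 1 lay within the WT range and WT array 1 above BACHD array 1, so the groups overlapped. The Hspa1a probe was detected on 6 of the 8 arrays. The difference of 2.32 (SE 0.73) had an exact permutation p of 0.0857. It was called without BACHD array 1 (3.20) or WT array 1 (2.99), and without the 3 arrays high in liver transcripts (3.04) or the 2 high in Dbp (2.84). Dnajb1, the co-chaperone of HSP70, followed the same arrays: 9.71, 11.16, 11.34 and 11.33 in BACHD hearts, against 11.02, 9.67, 9.53 and 10.10 in WT hearts (0.80, exact permutation p = 0.171). Hsph1, a nucleotide exchange factor for HSP70, was at 10.10, 11.27, 10.68 and 11.13 in BACHD hearts, against 9.98, 10.45, 9.89 and 10.51 in WT hearts (0.59, not called), again with BACHD array 1 among the WT values. Hspa1a has a near-identical copy, Hspa1b, and whether the probe separates them was not tested.

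Over the 39 detected chaperone genes 0 were called by limma and 7 had P below 0.05 (48 had a probe), 31 were above 0, and the median was 0.12 beside 0.01 over all detected genes, of which 55.2% were above 0. The median kept its sign under each of the 19 other settings tried, under which 0 to 3 members were called higher, Hspa1a among them without background correction and on the authors' processed values. Heat shock factors read alternating repeats of GAA and TTC, so the pairs GAANNTTC and TTCNNGAA were searched in the promoters of these chaperone genes and of Hspa1b. Hspa1a held 1 pair at -104 to -97, and so did Hspa1b. Hsph1 held 3 pairs between -33 and 48, the last 2 of them overlapping to form an element of 3 repeats (GAANNTTC followed by NN and a further GAA, here on the opposite strand), while the 300 bases at both annotated starts of Dnajb1 held none. Either pair occurred in 15.1% of the 32851 promoters and the 3-repeat element in 0.603%. The promoters of Hspa1a (chr17:34972107-34972406, minus strand) and Hsph1 (chr5:149636287-149636586, minus strand; GRCm38.p6) are shown with the repeat pairs in capitals, to compare the gene with the largest difference with one that holds the full element.
Hspa1a: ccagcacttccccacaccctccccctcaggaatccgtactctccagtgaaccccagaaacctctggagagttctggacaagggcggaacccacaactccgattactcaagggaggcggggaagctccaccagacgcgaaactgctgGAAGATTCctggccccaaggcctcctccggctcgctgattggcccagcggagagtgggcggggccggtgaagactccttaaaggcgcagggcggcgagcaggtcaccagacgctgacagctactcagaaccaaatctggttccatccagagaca
Hsph1: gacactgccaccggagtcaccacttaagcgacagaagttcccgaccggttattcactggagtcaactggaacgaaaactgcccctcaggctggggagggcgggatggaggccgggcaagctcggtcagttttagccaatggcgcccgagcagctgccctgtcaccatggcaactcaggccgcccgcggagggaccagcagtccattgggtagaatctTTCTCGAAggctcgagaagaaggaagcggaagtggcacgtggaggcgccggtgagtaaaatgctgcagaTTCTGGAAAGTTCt

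Immediate early genes, transcribed within minutes of a stimulus, had the highest median of all lists, 0.28 over 19 detected members, with 15 above 0 and 0 called by limma (3 at P below 0.05). The median was 0.14 without background correction, 15 members again being above 0. Atf3, a stress-induced transcription factor, was at 6.16, 7.33, 6.67 and 6.63 in BACHD hearts, against 6.58, 5.44, 5.11 and 6.12 in WT hearts. WT array 1 reached the BACHD range here too (0.89, exact permutation p = 0.0571). The Atf3 probe was detected on 6 of the 8 arrays. Jun differed by 0.54, Klf4 by 0.58, Fos by 0.58 and Egr1 by 0.51, none of them past the threshold. Among the clock genes 0 of 15 detected were called by limma (0 at P below 0.05), but Dbp, a clock-controlled transcription factor, split the WT group: 10.15, 10.08, 10.03 and 10.14 in BACHD hearts, against 11.57, 11.49, 10.11 and 10.19 in WT hearts. WT arrays 3 and 4 matched the BACHD level and WT arrays 1 and 2 were more than 1 unit above it (-0.74). The time of day at which each heart was taken was not analysed here.

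**Figure D3:**
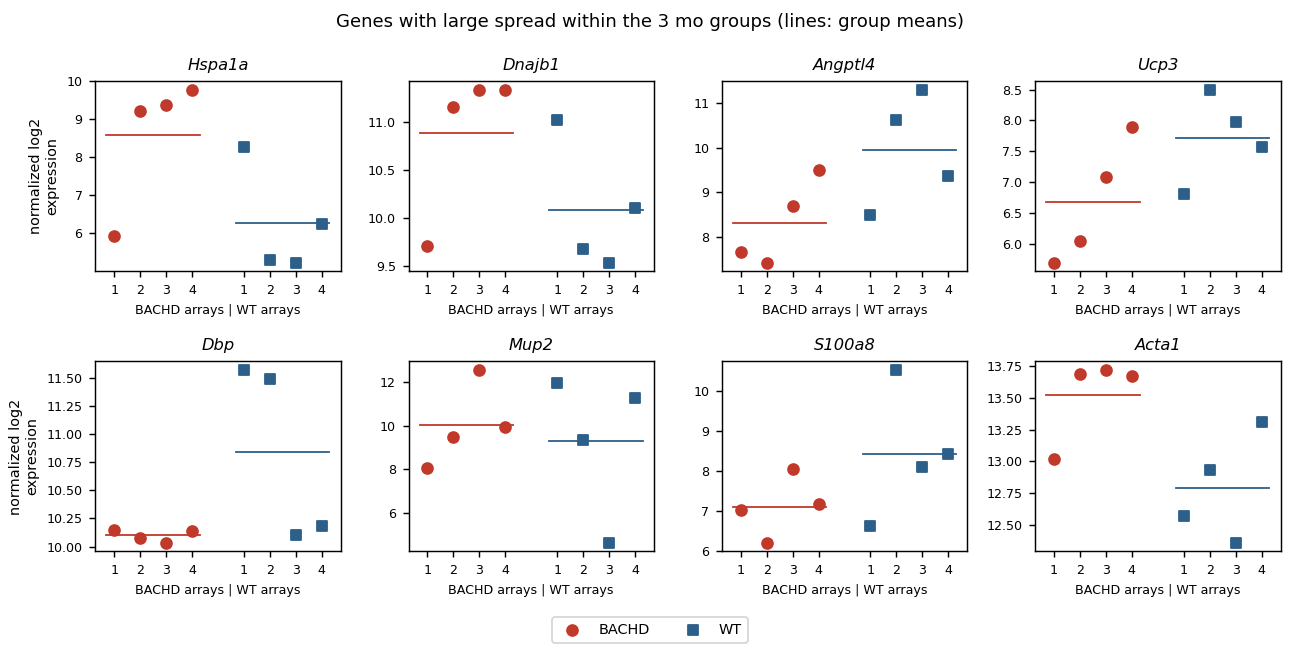
Normalized log2 expression of 8 genes on BACHD arrays 1 to 4 (red circles, left in each panel) and WT arrays 1 to 4 (blue squares, right), with lines at the group means and a separate vertical axis for each gene. Hspa1a and Dnajb1 are low on BACHD array 1 and high on WT array 1, Dbp is high on WT arrays 1 and 2, Mup2, made by the liver, is high on BACHD array 3 and WT arrays 1 and 4, and S100a8, of neutrophils, on WT array 2.

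Interferon response genes had 2 higher calls, a median of 0.17 and 20 of 23 detected members above 0, beside 24 higher calls among 7291 detected genes and a share of 55.2% above 0 over all of them. Irf5, a transcription factor of the interferon pathway, was at 6.19, 6.32, 5.86 and 6.09 in BACHD hearts, against 5.60, 5.52, 6.01 and 5.12 in WT hearts. WT array 3 lay above BACHD array 3, and the difference was 0.56 (SE 0.15), on a probe detected on 6 of the 8 arrays. The call was lost without any one of BACHD arrays 1 and 2 and WT arrays 2 and 4. Irgq, of the immunity-related GTPase family, was at 8.93, 8.86, 8.76 and 8.90 in BACHD hearts, against 8.70, 8.48, 8.47 and 8.63 in WT hearts, without overlap (0.29, SE 0.07). Helz2, an interferon-induced helicase outside the list, was higher by 0.35 and was called in 3 of the 8 fits that leave out an array. Among members that were not called, the antiviral synthetase Oas2 differed by 0.62 and Ifi35 by -0.28. Without BACHD array 3 and WT arrays 1 and 4, a setting chosen after seeing the data, 11 of the 23 were above 0 and the median was -0.01. Of 11 macrophage markers 0 were called by limma (0 at P below 0.05), 3 of the 9 detected ones were above 0, and their mean level was 9.06 to 9.34 in BACHD hearts and 8.96 to 9.45 in WT hearts.

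In all, 29 pathway lists and 14 cell type lists held 1248 genes, of which 1114 had a probe and 812 a detected one. They gave 11 higher and 8 lower calls, beside 44 higher (0.265%) and 36 lower (0.217%) over all 16593 genes. Because the lists were chosen with earlier results of these data known, these counts do not show where the calls concentrate. The calls not yet described fell on probes that were hardly detected: Tnfrsf25, a death receptor, was at 5.48, 6.52, 5.87 and 6.52 in BACHD hearts, against 5.60, 5.04, 5.10 and 5.56 in WT hearts, and was detected on 3 of the 8 arrays (0.78, lost without BACHD array 2 or 4 or WT array 2 or 3). The members Tnfrsf19 and Baiap2 were lower and Basp1 higher, on probes detected on 2, 1 and 0 arrays. Among 26 detected genes of the BCL2 family, the caspases and the death receptors 0 were called by limma (1 at P below 0.05). The 14 cell type lists, with 83 detected members, gave 0 calls by limma and 1 gene at P below 0.05. The 12 ventricular cardiomyocyte markers had a median of 0.02 and the 14 detected endothelial ones of 0.02. Of the genes commonly used for scaling, Tbp differed by -0.08, while B2m differed by -0.01 and changed sign with median scaling, array weights and the removal of single arrays.

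**Figure D4:**
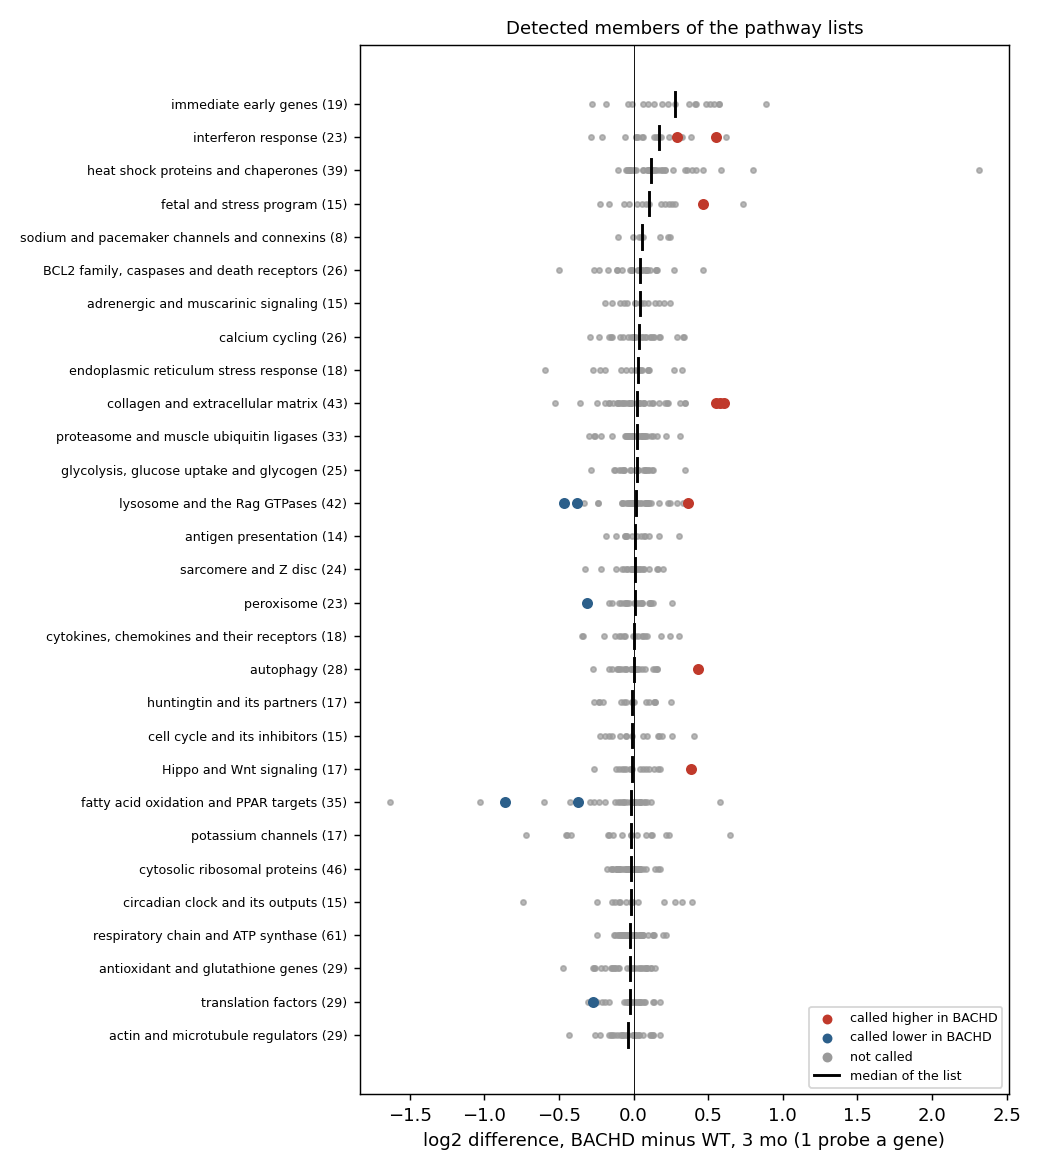
The log2 difference (BACHD minus WT, horizontal axis) of each detected member of the 29 pathway lists (rows, with the number of detected members in parentheses), ordered by the list's median, drawn as a black bar. Called members are red (higher in BACHD) or blue (lower), and the medians run from -0.04 to 0.28, with the 3 matrix calls and the single Hspa1a point at 2.32 standing off from their lists.

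Almost as many calls came from the larger set of probes that no young array detected. Of 14054 such probes 51 were called, 26 higher and 25 lower, beside 54 of the 10205 detected probes. A further 19 calls came from 1438 probes detected on 1 to 3 arrays. The 4 lower named ones of smallest P were Il1f10, Ncoa3, Sgk3 and Aldh7a1, and the 4 higher ones were Zscan20, Pus7, Nol4l and Actrt2. Il1f10 was at 4.98, 4.75, 4.54 and 5.04 in BACHD hearts, against 5.58, 5.47, 5.24 and 5.63 in WT hearts, all not above background, so no fold is given. Sgk3 was at 4.66, 4.86, 4.79 and 4.59 in BACHD hearts, against 5.15, 5.36, 5.52 and 5.22 in WT hearts, while the detected Sgk3 probes differed by -0.15, -0.13, 0.09 and 0.05 and none was called. Without background correction 105 probes were called, 71 of them detected.

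At 15 mo 149 of the 10205 detected probes were called between BACHD and WT hearts, or 1.46%. The 2 comparisons share no array, but they use the same estimate of the spread of each probe, so they are not independent. Of the 54 probes called at 3 mo, 7 were also called at 15 mo, which is 13.0% of the calls at 3 mo and 4.70% of those at 15 mo. Manba and Abcd3 were lower, and Pdzd3, a PDZ scaffold protein, and Abat higher, at both ages. At 3 mo the Abat call was lost without background correction, with an offset of 50 and with median scaling. The Pdzd3 call at 3 mo was lost without BACHD array 2 or WT array 1. It was also lost without the 3 arrays high in liver transcripts or the 2 high in Dbp. Manba differed by -0.38 at 3 mo and -0.41 at 15 mo, and Abcd3 by -0.31 and -0.46. The other 3, Rragd, Slc17a5 and Zfp933, were lower at 3 mo and higher at 15 mo in BACHD hearts. Rragd was at 8.78, 8.85, 8.71 and 8.86 in BACHD hearts at 15 mo, against 8.20, 8.25, 8.32 and 8.54 in WT hearts at 15 mo, so the groups separated at both ages with the order turned. Its log2 difference at 3 mo minus that at 15 mo was -0.93 (adjusted p = 0.0576 by limma), the smallest P of all probes.

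The difference between the ages was called for 102 detected probes, or 1.0%, with 0 past an adjusted 0.05 by limma and 920 at P below 0.05. Among the 54 it was called for 19, and 34 of the 54 had the opposite sign at 15 mo. This test reads the same 3 mo values that chose the 54, so these shares are a description. P4ha1 differed by 0.58 at 3 mo and -0.36 at 15 mo, Irf5 by 0.56 and -0.44, and Dpp7 by 0.36 and -0.19, with adjusted p of 0.643, 0.643 and 0.561 for the difference between the ages by limma. Ccn5 differed by 0.60 and -0.07. At 15 mo P4ha1 lay at 6.73 to 7.21 in BACHD hearts and at 7.17 to 7.71 in WT hearts, so that all BACHD hearts at 15 mo were below all those at 3 mo. Hspa1a, which spread over more than 4 units at 3 mo, lay between 5.25 and 5.72 in BACHD hearts and between 5.68 and 6.11 in WT hearts at 15 mo. Nmral1, a redox sensor protein, was not called at 3 mo (-0.21) but differed by 0.80 at 15 mo, with a called difference between the ages (-1.01, adjusted p = 0.561 by limma).

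**Figure D5:**
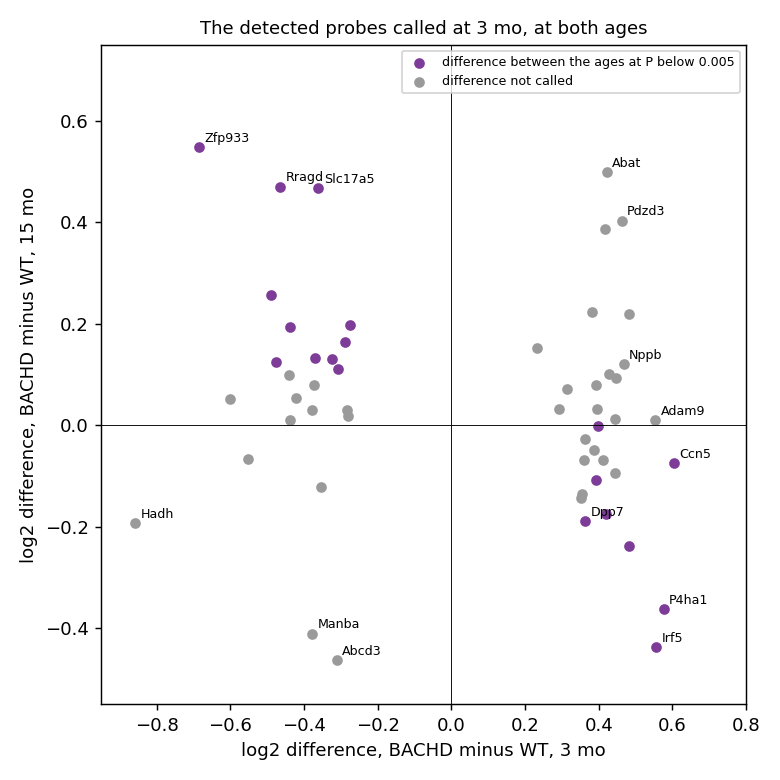
The log2 difference between BACHD and WT hearts at 3 mo (horizontal axis) against that at 15 mo (vertical axis) for the 54 detected probes called at 3 mo, in purple where the difference between the ages was called (19 probes) and in grey otherwise. Rragd, Slc17a5 and Zfp933 lie in the upper left and P4ha1 and Irf5 in the lower right, with opposite signs at the 2 ages, while Manba, Abcd3, Abat and Pdzd3 keep their sign.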

How the data were processed

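Gene expression was measured with Illumina bead arrays on RNA from the ventricles of 16 mice, 4 of each genotype at 3 mo and at 15 mo. The authors deposited, for each array, the unnormalized intensity of 25697 probes with a detection p-value, and a processed log2 table. The deposited log2 values equalled the quantile-normalized log2 of the intensity, without background correction, to within 5.0e-09. A probe was taken as detected at a detection p-value below 0.01 on at least 4 of the 8 young arrays.

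Intensities were background corrected by neqc of limma (version 3.58.1, R version 4.3.3), which infers the negative controls from the detection p-values (offset 16), then quantile normalized and log2 transformed, so that a level is comparable only within a probe. All 16 arrays were fitted together in 4 groups (lmFit and eBayes), and BACHD minus WT at 3 mo was taken as the contrast, with P below 0.005 as the call, which is the threshold of the study's methods, and Benjamini-Hochberg adjustment over all 25697 probes beside it. The same fit gave the contrast at 15 mo and the difference between the ages. For single genes the exact permutation test over the 35 splits of 4 against 4 arrays was added (two-sided, smallest possible p 0.0286). A gene with several probes was represented in the lists by the probe of highest mean over all arrays, and gene names came from the platform annotation.

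The genes named were the 15 higher and 15 lower detected calls of smallest P, 4 higher and 4 lower calls without a detected signal, up to 3 calls or the smallest P of each list, the 5 largest differences each way, 16 genes of prior interest, and the 6 smallest P of the difference between ages; other genes were named after their values were seen. The 43 gene lists came from general knowledge, and the members and lists were chosen with earlier results of these data known. The procedure was tested on simulated data. Promoters were taken from a RefSeq table of GRCm38.p6. Precision is limited by the 4 arrays of a group. Of the per-sample columns, 0 were left unused.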

Additional observations from a re-analysis of the deposited data

Results flagged for a closer look

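Among the 93 named probes, the 4 values of each genotype were examined for an array far from the others in its group, 186 groups in all, of which chance gives about 1 in 20, and 10 were found. BACHD array 1 was low for Hspa1a (5.92, the others at 9.23 to 9.78), Dnajb1 (9.71, others 11.16 to 11.34), Acta1 (13.02, others 13.68 to 13.72) and Zfp933 (5.88, others 6.14 to 6.18), and high for Dhx33 (6.98, others 6.64 to 6.69). BACHD array 3 was high for Slc17a5 (6.07, others 5.71 to 5.77). WT array 4 was low for Slc17a5 (6.06, others 6.21 to 6.24) and Wt1 (7.12, others 7.51 to 7.56), WT array 3 was low for Zfp933 (6.29, others 6.90 to 7.02), and WT array 1 was low for Nqo1 (9.20, others 9.49 to 9.52).

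For 24 named probes the difference between BACHD and WT hearts at 3 mo minus that at 15 mo passed P below 0.005. It was positive for Irf5 (0.99), P4ha1 (0.94), Zfp638 (0.72), Ccn5 (0.68), Pus7 (0.65), Eng (0.60), Pofut2 (0.60), Dpp7 (0.55), Actrt2 (0.51), Dhx33 (0.50) and Tpd52l2 (0.40). It was negative for Zfp933 (-1.23), Baiap2 (-1.15), Nmral1 (-1.01), Rragd (-0.93), Slc17a5 (-0.83), Tnfrsf19 (-0.83), Il1f10 (-0.68), Hbp1 (-0.63), Matr3 (-0.60), Eif1a (-0.47), Mospd1 (-0.45), Tmem263 (-0.42) and Myh4 (-0.26). Most of these probes were chosen for their values at 3 mo, which the test also uses. The Myh4, Il1f10, Pus7 and Actrt2 probes were detected on 0 of the 8 young arrays, that of Baiap2 on 1 and that of Tnfrsf19 on 2.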

How the results depend on the processing

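The 124 calls over all probes and the 54 over detected probes rested on an unadjusted threshold, and 0 passed adjustment by limma. The detected calls numbered 34 with median scaling (13 higher and 21 lower, against 30 and 24), 84 with the replicate block, and 93 without the 3 arrays high in liver transcripts, a setting chosen after seeing the data, as was leaving out WT arrays 1 and 2, high in Dbp (57 calls). Fitting only the detected probes gave 46 calls over all probes, 32 genes, and 85 probes for the difference between ages, and median scaling gave 95 for that difference. Without 1 array the calls were 97 to 180 over all probes, 37 to 91 over detected probes, 65 to 108 over genes and 121 to 201 for the difference between ages. Over the detected probes, deviations from the group mean were correlated between BACHD and WT arrays of the same number. The correlations were -0.17, 0.04, -0.48 and 0.18, against -0.44 to 0.44 between young arrays of unlike numbers. Whether arrays of the same number share a batch or a litter was not tested. B2m, not called, changed sign to 0.0052 with median scaling and 0.013 with array weights, was at -0.080 to 0.055 without 1 array, and was at 0.040 without the 3 liver-high arrays, where Tbp was at 0.033. Without 1 array Il6 was at -0.016 to 0.088, and Mup2 at -0.83 (without WT array 3) to 1.59 and -0.13 without BACHD array 3. The Il6 probe was detected on 0 of the 8 young arrays. Adjusted p fell below 0.05 by limma for the difference between ages of Rragd in 8 settings. It was 0.0140 by limma both without background correction and on the authors' processed values, which are the same values. Without WT array 3 adjusted p by limma was also below 0.05 for Zfp933 between ages (0.0152) and for Ciao3 at 3 mo (0.0170) and between ages (0.00930). The Ciao3 probe was detected on only 2 of the 8 young arrays. The cause of these changes was not tested.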
